A study of Mus musculus with 36 samples.

Results

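The 10 genes described here encode transcription factors that set or mark the first cell lineages of the mouse embryo: Pou5f1, Nanog, Sox2, Klf4, Gata6, Tead4, Cdx2, Gata3, Tfap2c and Klf5. They were chosen by symbol for their known roles, matched to their Ensembl identifiers, and are 10 of the 55487 genes in the morula count table. Morulae were obtained by IVF with sperm of C57BL/6N wildtype males (C57BL/6 in the labels), 8 weeks old, that had eaten a high-fat diet (HFD, 60% of kcal from fat) or a low-fat diet (LFD, 10% of kcal from fat) for 2 weeks. The oocytes came from unexposed wildtype females, and morulae were picked after 72 h in high-calcium human tubal fluid medium. The paternal diet is the only difference between the groups that the labels name. For 3 morula samples the description field names the other diet, and the title and treatment were followed. Each diet had 3 libraries, named here by diet and by the number in their column header (HFD 5, 6 and 7, LFD 1, 2 and 3). The number of embryos, males or fertilisations behind a library is not given in the sources used here, so p-values measure the spread between these libraries only. The other samples served as background. Cauda sperm came from C57BL/6N males, 8 weeks old, on HFD or LFD for 2 weeks (3 libraries each). Round spermatids came, per the methods, from males of the same strain, age and diets (6 libraries). Liver, epididymal white adipose tissue (eWAT) and gastrocnemius muscle came from wildtype mice labelled as HFD-tolerant or HFD-intolerant (6 libraries each). Per the methods these last mice are chow-fed, unexposed sons of HFD fathers, although their treatment label reads High Fat Diet. The column names of the last 4 tables do not give a library's diet or phenotype, so these were grouped by tissue.

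A mouse morula is a compacting ball of blastomeres that is about to split into an outer epithelium, the trophectoderm, which builds placenta, and an inner cell mass, which then divides into the pluripotent epiblast and the primitive endoderm of the yolk sac. In outer, polarised cells the Hippo pathway is off, the coactivator Yap1 enters the nucleus and Tead4 switches on Cdx2 and Gata3. Inner cells keep Pou5f1 and Nanog, gain Sox2, and later become epiblast or, with Gata6, primitive endoderm. Klf4, Klf5 and Tfap2c act in more than 1 of these programmes, and many of the factors are co-expressed in the same blastomeres before the lineages part.

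The proteins Pou5f1 and Sox2 bind side by side at octamer and SOX letters, including in front of Nanog. RefSeq promoters on GRCm38.p6 were found for 6 of the 10 genes (Pou5f1, Nanog, Sox2, Cdx2, Gata3 and Klf4), and the 250 bases before each start site were searched on both strands for 7 motifs, of which the octamer core letters ATGCAAA and the SOX core letters ACAANG are shown. The octamer letters were present in 3 of the 6 genes, Nanog, Sox2 and Cdx2, and in 4.65% of 27025 genes with a promoter (4.12% of 32851 promoters), a gene being counted where any of its start sites matched. The SOX letters stood in 4 of the 6 genes, Pou5f1 (only at its second start site), Nanog, Sox2 and Gata3, and in 39.9% of all genes (36.3% of promoters). Of the other 5 motifs, the GC box GGGCGG was found in 4 of the 6 genes (35.4% of all genes), the CACCC box CCACCC in 4 (30.6%), the AP-2 palindrome GCCNNNGGC in 3 (15.4%), the TEAD letters GGAATG in 0 (14.4%) and the GATA letters AGATAA in 0 (11.4%). Bases -220 to -51 before the start site are shown for these 3 genes, 5′ to 3′ on the gene's strand, with octamer and SOX letters in capitals. The Nanog stretch is chr6:122707269-122707438 (+), the Sox2 stretch chr3:34649775-34649944 (+) and the Cdx2 stretch chr5:147307300-147307469 (-).
Nanog: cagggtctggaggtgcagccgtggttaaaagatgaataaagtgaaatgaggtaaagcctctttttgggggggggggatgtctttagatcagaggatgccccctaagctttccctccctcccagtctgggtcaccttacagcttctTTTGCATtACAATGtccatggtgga
Sox2: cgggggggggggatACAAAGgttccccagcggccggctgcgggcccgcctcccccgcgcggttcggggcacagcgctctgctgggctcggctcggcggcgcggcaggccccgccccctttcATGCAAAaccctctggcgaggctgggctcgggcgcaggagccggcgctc
Cdx2: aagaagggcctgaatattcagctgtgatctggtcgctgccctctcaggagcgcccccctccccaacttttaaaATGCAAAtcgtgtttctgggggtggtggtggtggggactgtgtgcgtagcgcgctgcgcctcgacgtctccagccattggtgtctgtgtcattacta
In Nanog the octamer letters, here read on the opposite strand as TTTGCAT at bases -75 to -69, were followed after 1 base by SOX letters at -67 to -62. In Sox2 they lay at -99 to -93 with SOX letters at -206 to -201, and in Cdx2 they lay at -147 to -141 with no SOX letters in the window. The 3 genes with the octamer letters did not share a level in morula, being 2nd (Nanog), 9th (Cdx2) and 10th (Sox2) of the 10 genes per length. A match to these letters is a description of the sequence and not a bound site.

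All 10 genes had counts in all 6 morula libraries, at levels that spanned 316-fold per length. Klf5 was the most abundant at 225 ± 19.9 transcripts per 1000000 (TPM, mean ± SD, n = 6 libraries), more than 99.1% of the genes detected in the table, and it made up 35.1% of the summed TPM of the 10 genes. Sox2 was the least abundant at 0.712 ± 0.326 TPM, above 50.1% of detected genes, and made up 0.111%. TPM here is the deposited count divided by the gene's exon length and scaled to the same sum over all genes of a library, including the mitochondrially encoded genes that took 22.8% to 26.9% of the counts. Over nuclear genes alone the level of Klf5 would read 376 TPM.

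The order per length was Klf5, Nanog, Tead4, Gata6, Pou5f1, Tfap2c, Klf4, Gata3, Cdx2 and Sox2. Neighbours in this order were compared within libraries by an exact two-sided sign-flip permutation test on log2(TPM + 0.1), adjusted over the 9 pairs. Its smallest p over 6 libraries is 0.03125. The order was taken from these same 6 libraries, so the test describes how steady it was among them. It is not independent support for the order. In 6 pairs the first gene was higher in 6 of 6 libraries (adjusted p = 0.0469, exact test): Klf5 over Nanog by 1.12 ± 0.34 on the log2 scale (SD), Gata6 over Pou5f1 by 0.96 ± 0.14, Pou5f1 over Tfap2c by 0.50 ± 0.12, Klf4 over Gata3 by 0.64 ± 0.08, Gata3 over Cdx2 by 1.26 ± 0.38 and Cdx2 over Sox2 by 3.51 ± 1.05. Nanog exceeded Tead4 in 5 of 6 libraries (adjusted p = 0.121, exact test), and Tead4 and Gata6 (0.02 ± 0.14, adjusted p = 0.879) and Tfap2c and Klf4 (0.01 ± 0.16, adjusted p = 0.906) were separated by less than their spread in the same exact test. Without division by length, in counts per 1000000 of the library total (CPM), Gata6, with the longest exons of the 10 genes (6508 bases), moved to the 2nd place. On that scale 2 further pairs changed places: Tead4 exceeded Nanog in 6 of 6 libraries (adjusted p = 0.0402, exact test) and Tfap2c exceeded Pou5f1 in 5 of 6 (adjusted p = 0.0703, exact test).

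**Figure D1:**
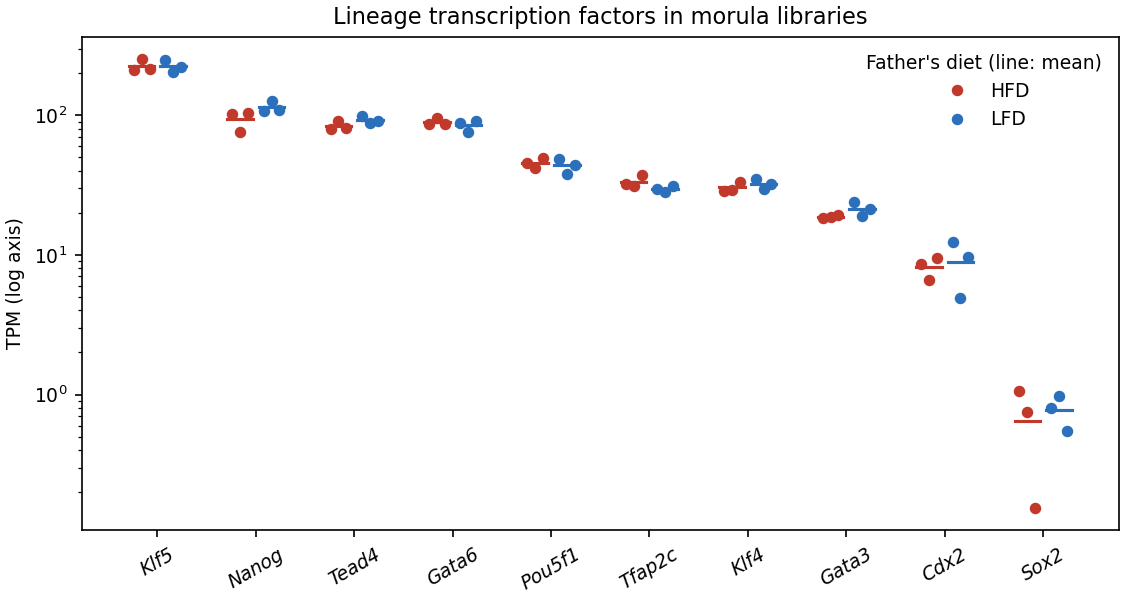
Level of the 10 lineage factors in each morula library, in TPM on a log axis, with libraries of HFD fathers in red and of LFD fathers in blue and a line at each diet's mean (n = 3). Levels fall from Klf5, at 205 to 252 TPM, to Sox2, at 0.155 to 1.05 TPM, while the 2 diets lie close together within each gene.

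None of the lineage factors differed between morulae of HFD and LFD fathers past the threshold. In the edgeR quasi-likelihood fit over 13447 genes, with Benjamini-Hochberg adjustment over all of them, 0 of the 9 factors tested were called at an adjusted p of 0.05, and 0 genes in all (0% called). At an unadjusted p under 0.05 stood 0 of the 9 factors against 858 genes in all (6.38%). With no filter on low counts Nanog alone of the factors stood there (-0.29, 95% interval -0.51 to -0.07, unadjusted p = 0.0112, edgeR adjusted p = 0.551), among 6.34% of all genes tested. It also did so without HFD 5 (unadjusted p = 0.0114, adjusted p = 0.441, among 8.50% of genes) and without LFD 1 (unadjusted p = 0.0478, adjusted p = 0.998, among 4.47%). Of the 9 factors, 4 had a fold change above 0 and 5 below, with a median of -0.08 on the log2 scale, against a median of 0.01 over all tested genes. Every 95% interval of the 9 lay between -0.75 and 0.56, so a 2-fold difference in either direction, 1 on the log2 scale, was outside all of them. Sox2 did not pass the filter on low counts (the depth-scaled equivalent of 10 counts in at least 3 libraries) and is given by its counts. In bulk libraries, fewer cells of a lineage and less RNA per cell cannot be told apart.

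**Figure D2:**
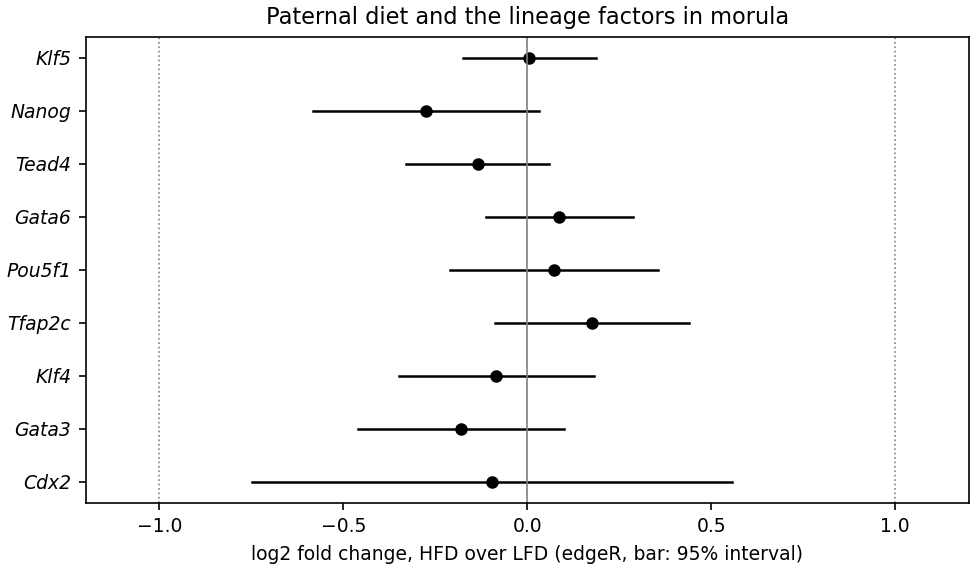
Log2 fold change of HFD over LFD morulae in edgeR for the 9 factors tested, ordered by level, with 95% intervals as bars, a solid line at 0 and dotted lines at 1 and -1. All 9 intervals include 0, and the widest is that of Cdx2, from -0.75 to 0.56.

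Among the pluripotency factors, Pou5f1 (Oct4, ENSMUSG00000024406, chromosome 17, 35506018 to 35510772, plus strand, GRCm38), which is needed for an inner cell mass, read 45.5, 41.9 and 49.6 TPM in HFD 5, 6 and 7 and 48.7, 38.1 and 44.2 TPM in LFD 1, 2 and 3. The groups overlapped throughout, and the lowest library was LFD 2. The difference was 0.07 on the log2 scale (SE 0.13, 95% interval -0.21 to 0.35, edgeR adjusted p = 0.958), and with 1 library left out it ran from -0.0024 without LFD 2 to 0.16 without HFD 6. Its exons share 317 bases with Gm19553 on the other strand, which had at most 1 count in a library. Nextera libraries do not keep the strand.

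Nanog (ENSMUSG00000012396, chromosome 6, 122707489 to 122714633, plus strand), which holds cells in the naive pluripotent state, read 102, 75.8 and 103 TPM in the HFD libraries and 107, 126 and 109 TPM in the LFD libraries. In TPM the 3 HFD libraries were all below the LFD libraries, as were 5.41% of all tested genes, with 10.8% lying apart in either direction and 5.35% with HFD above. The other 8 tested factors overlapped in TPM. In TMM-scaled CPM, the scale of the test, the groups overlapped, at 131, 84.2 and 116 against 119, 151 and 131. The difference was -0.28 (SE 0.14, 95% interval -0.58 to 0.03, unadjusted p = 0.0744, edgeR adjusted p = 0.795), the lowest p among the 9 factors. Without HFD 6, the library lowest in Nanog, it was -0.12, without LFD 2, the highest, it was -0.18, and without HFD 5 it was -0.42. HFD 6 was also the library highest in Xist, the RNA that coats the inactive X chromosome, with 2076 CPM against 738 to 1077 CPM in the other 5. By diet, Xist was at 1313 ± 631 TMM-scaled CPM in HFD and 870 ± 125 in LFD (SD, n = 3), with overlap. Its log2 fold change was 0.59 (edgeR unadjusted p = 0.0190, among 6.38% of all tested genes under 0.05, adjusted p = 0.704). The Y-linked gene Ddx3y was at 28.5 to 41.0 CPM in all 6, so Xist and Y-linked RNA were both present in every library. The part of the Xist level in the Nanog value was not tested. The annotated pseudogene Nanog-ps1 matches 245 bases of Nanog at 97.5% identity and had 0 to 7 counts, and a stretch of 80 to 190 Nanog bases matches transcripts of 65 further genes at 95% or more, so a small share of Nanog reads may be placed elsewhere or lost.

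Sox2 (ENSMUSG00000074637, chromosome 3, 34650405 to 34652461, plus strand), the partner of Pou5f1 and an early mark of inner cells, had only 14, 9 and 2 counts in HFD 5, 6 and 7 and 10, 12 and 7 counts in LFD 1, 2 and 3. HFD 7 was the lowest, with an exact Poisson 95% interval of 0.242 to 7.22 counts, and the groups overlapped. The sums of 25 and 29 counts gave a ratio of 0.860 per total count, with an exact 95% interval of 0.483 to 1.52 that covers counting error only. With no filter on low counts, edgeR gave -0.21 on the log2 scale (SE 0.97, 95% interval -2.12 to 1.69, adjusted p = 0.9748). A change of Sox2 within this wider edgeR interval was not detectable at this depth. Here 3 counts correspond to 0.247 to 0.262 CPM in a morula library.

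Klf4 (ENSMUSG00000003032, chromosome 4, 55527143 to 55532466, minus strand), a zinc-finger factor of the naive state that also acts in epithelia, read 28.7, 29.2 and 33.3 TPM in the HFD libraries and 35.1, 29.5 and 32.1 TPM in the LFD libraries. The ranges overlapped, and the difference was -0.08 (SE 0.12, 95% interval -0.35 to 0.18, edgeR adjusted p = 0.943), or -0.03 without HFD 6 and -0.13 without LFD 2.

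Gata6 (ENSMUSG00000005836, chromosome 18, 11052064 to 11085635, plus strand), the factor that drives primitive endoderm and opposes Nanog, read 87.0, 95.7 and 86.0 TPM in the HFD libraries and 87.2, 75.6 and 90.5 TPM in the LFD libraries. LFD 2 was the lowest library, and the groups overlapped. The difference was 0.09 (SE 0.09, 95% interval -0.11 to 0.29, edgeR adjusted p = 0.922). It was 0.03 without LFD 2, 0.04 without HFD 5, 0.14 without HFD 7 and 0.16 without LFD 3. Its exons share 93 bases with 1010001N08Rik on the other strand, which had 93 to 147 counts against 2961 to 3657 counts of Gata6.

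Of the trophectoderm factors, Tead4 (ENSMUSG00000030353, chromosome 6, 128224288 to 128300823, minus strand), the DNA-binding partner of Yap1 at the top of this programme, read 80.1, 90.5 and 80.6 TPM in the HFD libraries and 98.1, 87.6 and 90.5 TPM in the LFD libraries, with overlap. On the TMM scale it was at 165, 161 and 145 CPM against 175, 169 and 174 CPM, and all 3 HFD libraries were below the LFD libraries. Tead4 was the only 1 of the 9 factors without overlap on that scale, where 12.1% of all tested genes did not overlap (6.18% with HFD below and 5.94% with HFD above). The difference was -0.14 (SE 0.09, 95% interval -0.33 to 0.06, edgeR adjusted p = 0.846), or -0.08 without HFD 7.

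Cdx2 (ENSMUSG00000029646, chromosome 5, 147300805 to 147307270, minus strand), the homeobox factor that commits outer cells to trophectoderm, read 8.64, 6.56 and 9.56 TPM in the HFD libraries and 12.3, 4.92 and 9.61 TPM in the LFD libraries. LFD 1 was the highest and LFD 2 the lowest library, so that the LFD libraries alone spanned the whole range. The difference was -0.10 (SE 0.31, 95% interval -0.75 to 0.56, edgeR adjusted p = 0.979), and its sign turned to 0.15 without LFD 1 and to 0.07 without HFD 6.

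Gata3 (ENSMUSG00000015619, chromosome 2, 9857078 to 9890034, minus strand), which acts beside Cdx2 downstream of Tead4, read 18.3, 18.8 and 19.2 TPM in the HFD libraries and 23.7, 19.0 and 21.2 TPM in the LFD libraries. The groups touched only through LFD 2, and the difference was -0.18 (SE 0.13, 95% interval -0.46 to 0.10, edgeR adjusted p = 0.863). The genes that share exon bases with Gata3, Gm13256 (155 bases) and 9230102O04Rik (77 bases), had at most 1 count.

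Tfap2c (ENSMUSG00000028640, chromosome 2, 172549593 to 172558622, plus strand), an AP-2 factor that promotes polarity genes and trophectoderm, read 32.0, 31.0 and 37.4 TPM in the HFD libraries and 29.5, 28.2 and 31.2 TPM in the LFD libraries. HFD 7 was the highest library, and HFD 6 and LFD 3 overlapped narrowly. At 0.18 (SE 0.12, 95% interval -0.09 to 0.44, edgeR adjusted p = 0.856) it had the highest fold change of the 9 factors.

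Klf5 (ENSMUSG00000005148, chromosome 14, 99298691 to 99315036, plus strand), which supports both trophectoderm and inner cell mass, read 211, 252 and 213 TPM in the HFD libraries and 248, 205 and 221 TPM in the LFD libraries. Both the highest library, HFD 6, and the lowest, LFD 2, had close neighbours from the other diet. The difference was 0.01 (SE 0.08, 95% interval -0.18 to 0.19, edgeR adjusted p = 0.995), the smallest of the 9.

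The spread between libraries of a diet differed among the factors, widest in Cdx2 and Nanog. The SD of log2 CPM within a diet was 0.50 for Cdx2 and 0.26 for Nanog, and 0.07 to 0.15 for the other 7. Genes within 0.5 of the same mean log2 CPM served as the reference: 98.3% of 981 such genes varied less than Nanog and 90.8% of 1706 varied less than Cdx2. Gata3 (10.3%), Klf4 (12.4%) and Tead4 (15.3%) were among the steadier genes of their level, and Tfap2c (36.3%), Pou5f1 (46.6%), Klf5 (55.6%) and Gata6 (63.0%) lay in between. For all 6 libraries together, the coefficient of variation in TPM ran from 7.62% (Gata6) to 29.95% (Cdx2), with 45.7% for the scarce Sox2. The extremes of several factors fell in the same library: in TPM and on the TMM scale, LFD 2 was the lowest for Cdx2, Pou5f1 and Gata6 and the highest for Nanog.

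**Figure D3:**
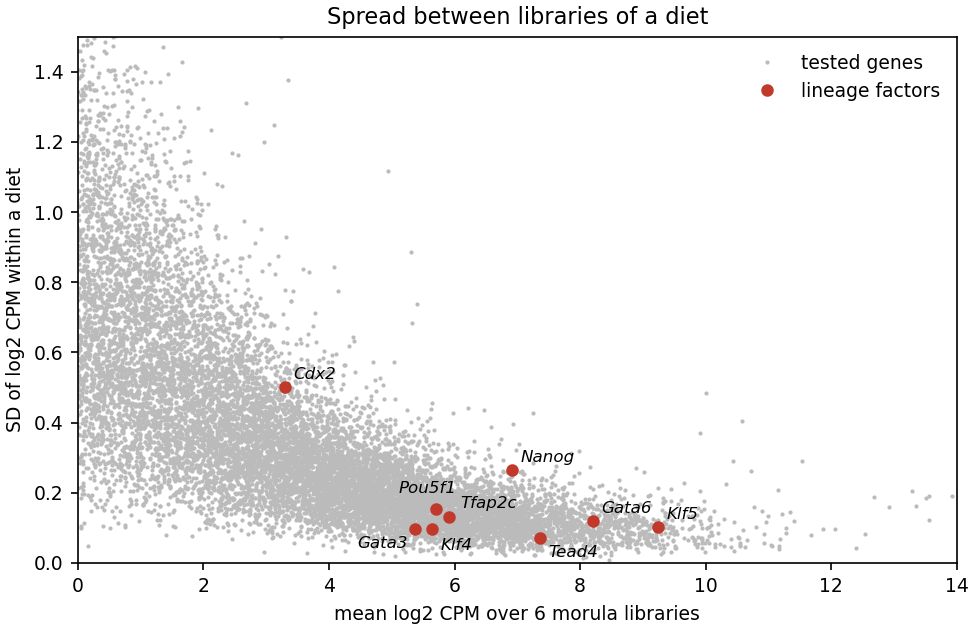
SD of log2 CPM within a diet against mean log2 CPM over the 6 morula libraries, with tested genes in grey (the axes leave out a few beyond their limits) and the 9 tested lineage factors in red. Genes of low level vary more, and Nanog (SD 0.26) and Cdx2 (SD 0.50) sit near the upper edge of genes of their level.

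Ratios of 6 pairs of opposing or partnered factors within a library were compared between the diets on the log2 scale, per kilobase and with 0.5 CPM per kilobase added. The scaling between libraries enters them only through the added value, which is of the order of the level of Sox2. The exact two-sided permutation test over 20 arrangements cannot go below p = 0.1. These are ratios of RNA in bulk libraries and not of cells of each lineage. The ratio of Gata6 to Nanog sets a later primitive endoderm factor against an epiblast factor. In HFD 5, 6 and 7 this ratio was -0.23, 0.33 and -0.26. In LFD 1, 2 and 3 it was -0.30, -0.73 and -0.27. It was the only ratio without overlap, and although HFD 7 and LFD 3 all but met, it was 0.38 higher in HFD (exact permutation p = 0.1, adjusted p = 0.6 over the 6 ratios). The difference was 0.19 without HFD 6 and 0.23 without LFD 2. The ratio of Tead4 to Tfap2c was lower in HFD by 0.30 (-0.30 as HFD minus LFD, exact permutation p = 0.2, adjusted p = 0.6), and by 0.20 without HFD 7 (-0.20). The ratio of Cdx2 to Nanog sets a trophectoderm factor against an epiblast factor. It was -3.36 ± 0.07 in HFD and -3.62 ± 0.73 in LFD (SD, n = 3, difference 0.25, exact permutation p = 0.8). LFD 2 alone, at -4.43, gave the wide spread and turned the difference to -0.16 when left out. Without LFD 1 the difference was 0.55. The differences for Cdx2 to Pou5f1 (-0.11), Gata3 to Sox2 (-0.02) and Klf5 to Klf4 (0.09) had exact permutation p values of 0.8, 1 and 0.7. Their signs were not stable, and they read 0.06 without LFD 1, 0.42 with no pseudocount and -0.02 without HFD 6, respectively.

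**Figure D4:**
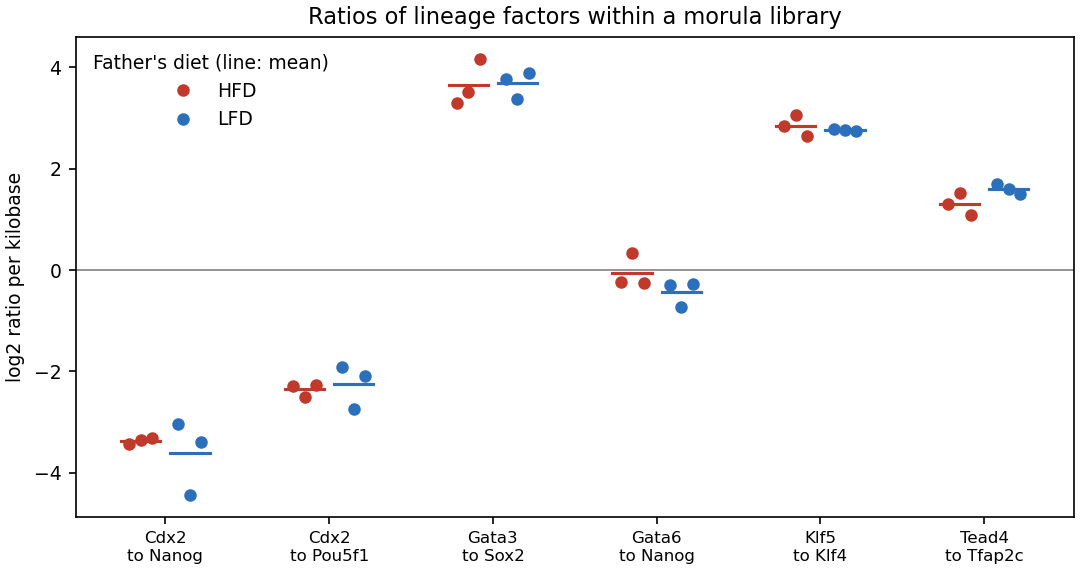
Log2 ratios per kilobase of 6 pairs of lineage factors in each morula library, HFD in red and LFD in blue, with a line at each diet's mean (n = 3). The diets overlap in 5 pairs, and in Gata6 to Nanog they lie apart by a narrow margin (-0.26 as the lowest HFD and -0.27 as the highest LFD value).

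The genes around these factors were followed in 5 lists, in which 0 genes were called by edgeR. The background for their counts is that over all tested genes, 6.38% at an unadjusted p under 0.05 and 12.1% without overlap on the TMM scale. Of 20 pluripotency and inner cell mass genes, 18 were tested, 5 higher and 13 lower in HFD, with a median of -0.06, or -0.11 without HFD 5. In this list 1 gene had an unadjusted p under 0.05 and 2 did not overlap, 1 with HFD above and 1 below. Dppa3, which protects the maternal genome from demethylation, was at 5891 TPM (log2 fold change -0.16, adjusted p = 0.771), Dppa5a, a marker of pluripotent cells, at 543 TPM (0.14, adjusted p = 0.890) and Fgf4, the signal from epiblast to primitive endoderm, at 6.36 TPM (-0.39, adjusted p = 0.844). The largest difference in the list was that of Il6st, the receptor subunit of LIF signalling, at 1.32 (unadjusted p = 0.0267, adjusted p = 0.729), but at 0.400 TPM. Of 20 trophectoderm genes, 17 were tested, 8 higher and 9 lower with a median of -0.07, and 2 did not overlap, both with HFD above. Without HFD 6 its median was 0.10 and without LFD 3 it was 0.05, each with 10 higher and 7 lower. The water channel gene Aqp3 (-0.55, unadjusted p = 0.00775, adjusted p = 0.687) was the only 1 at an unadjusted p under 0.05. The list included the endocytic receptor Lrp2 (116 TPM, 0.16, adjusted p = 0.844), its adaptor Dab2 (99.7 TPM, 0.09, adjusted p = 0.927), the cadherin gene Cdh3 (1.42 TPM, 0.77, adjusted p = 0.804) and Id2 (1.06 TPM, -0.75, adjusted p = 0.884), and 1 gene of the list was at 0 in all 6 libraries. Of 16 primitive endoderm genes, 11 were tested, 4 higher and 7 lower with a median of -0.15, all with an adjusted p of 0.812 or more, 0 at an unadjusted p under 0.05, and 2 without overlap, both with HFD below. Without HFD 6 and without LFD 1 the median of this list was -0.06. Its most abundant members, the phosphatase gene Dusp4 (log2 fold change 0.0084) and the laminin gene Lamb1 (-0.15), reached 16.8 and 9.19 TPM, well below the 87.0 ± 6.63 TPM (SD, n = 6) of Gata6 in the same libraries. The largest differences of this list were those of the collagen chaperone gene Serpinh1 (1.54 TPM, 0.98) and of Dusp6, a phosphatase of the FGF pathway (0.830 TPM, -0.53). Gata4, a factor that follows Gata6 in primitive endoderm, was at 12.4 ± 2.63 TMM-scaled CPM in HFD and 13.3 ± 1.59 in LFD (SD, n = 3, log2 fold change -0.11, edgeR adjusted p = 0.964).

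Hippo and TEAD partner genes, 18 of 19 tested, were even in direction, 9 higher and 9 lower with a median of -0.03, or 6 higher and 12 lower with a median of -0.12 without HFD 5. In 4 the groups did not overlap, 1 with HFD above and 3 below. In this list 2 genes had an unadjusted p under 0.05: the Yap1 relative Wwtr1 (-0.28, adjusted p = 0.751) and Wwc1, an upstream activator of the pathway (0.31, adjusted p = 0.755). Yap1 itself was at 111 ± 16.2 TMM-scaled CPM in HFD and 128 ± 19.4 in LFD (SD, n = 3, log2 fold change -0.21, edgeR adjusted p = 0.844), and Vgll4, which competes with Yap1 for TEAD proteins, had the largest difference of this list (-0.45, adjusted p = 0.807), before the Tead4 relative Tead2 (-0.45, adjusted p = 0.891). The most abundant were Mob1a, an activator of the Lats kinases (72.2 TPM, -0.08, adjusted p = 0.926), and the kinase gene Stk4 (41.8 TPM, 0.09, adjusted p = 0.922). All 15 polarity and compaction genes were tested, and 12 had a fold change below 0, with a list median of -0.09. In 5 of the 15 all HFD libraries were below LFD (6.18% of all tested genes) and in 1 above (5.94%), so 6 did not overlap (12.1%). An unadjusted p under 0.05 was reached by 4 (6.38%), none of which passed the adjustment. Without HFD 6 the list was 6 higher and 9 lower, with a median of -0.04, and without HFD 5 its median was -0.16. These were Arhgap29 at -0.37 (unadjusted p = 0.00488, adjusted p = 0.674), Pard6b, a subunit of the apical PAR complex, at -0.35 (unadjusted p = 0.0107, adjusted p = 0.688), the ezrin relative Rdx at -0.31 and the kinase gene Rock1 at -0.24. E-cadherin, Cdh1, the adhesion molecule of compaction, was at 145 TPM with a log2 fold change of -0.14 (adjusted p = 0.844), and its partner alpha-catenin, Ctnna1, was at 110 TPM (-0.05, adjusted p = 0.958).

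The libraries carried early-embryo RNA: Dppa3 was at 2379 to 3066 CPM and Zfp42 at 43.1 to 55.3 CPM in all 6. Library totals were 11471251 to 12153141 counts. Oocyte transcripts summed to 32.8 to 35.8 CPM in HFD and 34.4 to 41.2 CPM in LFD libraries (8 of 12 tested, 2 higher, 6 lower, or 4 and 4 without LFD 2). Transcripts of the 2-cell stage summed to 11.98 to 129 CPM in HFD and 13.1 to 56.2 CPM in LFD (8 of 10 tested, 7 higher, 1 lower). HFD 7 alone gave the 129 CPM, with 24.96 and 11.98 CPM in HFD 5 and 6, and without it 1 gene was higher and 7 lower in HFD. Without LFD 3, 4 were higher and 4 lower. Genes of cumulus and granulosa cells summed to 2.39 to 4.91 and 1.60 to 5.58 CPM, with 7 of the 12 at 0 in all libraries. Sperm transcripts summed to 0.741 to 1.55 and 0.165 to 2.70 CPM, with 3 of 8 at 0. No gene of these marker lists was called, and their part in the values of the lineage factors was not tested.

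Across the 6 tables of the series, 8 of the 10 factors had their highest median CPM in morula, the exceptions being Klf4 and Gata3. The tables differ in library kit (Nextera for morula, round spermatids and sperm, with paired ends only in the first 2, and QuantSeq 3′ for the tissues), so CPM values of a gene are set side by side without a test, as ranges over 6 libraries. They also differ in the share of mitochondrially encoded counts, at 78.1% to 84.3% in HFD sperm, 43.5% to 64.7% in LFD sperm, 1.96% to 2.38% in round spermatids and 15.1% to 45.5% in the tissues. CPM is per total count unless nuclear CPM, which leaves these counts out of the total, is named. On the nuclear scale 8 of the 10 again had their highest median in morula. The tissues and round spermatids carried their defining genes. Alb was at 19294 to 38866 CPM in liver and Acta1 at 8256 to 16342 CPM in gastrocnemius. Adipoq was at 4228 to 8171 CPM in eWAT and Acrv1 at 216 to 253 CPM in round spermatids. Genes of other tissues were also read. In eWAT, Alb was at 23.9 to 315, Acta1 at 34.5 to 370 and the muscle gene Myh4 at 1.42 to 409 CPM. Myh4 was at 1.18 to 23.6 CPM in liver. Adipoq was at 3.88 to 54.1 CPM in gastrocnemius and 14.1 to 17.6 CPM in round spermatids. Their part in the values of the lineage factors was not tested. In sperm the protamine gene Prm1 was at 99.99 to 227 CPM, while Acrv1 was at a median of 1.35 CPM and at 0 in 1 library, and the epididymal gene Crisp1 was at 1585 to 23483 CPM. Depth was 2560219 to 4062321 counts in sperm, 20138842 to 31056066 in round spermatids and 369772 to 4055537 in the tissues, and 3 counts, the limit that a count of 0 allows, are worth up to 8.11 CPM in the shallowest muscle library.

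Pou5f1 was at a median of 53.3 CPM in morula (45.0 to 57.8) and of 1.33 CPM in round spermatids (0.916 to 1.89, 206 counts in all), and it had 0 counts in sperm, liver and eWAT and 1 count in muscle. Nanog, at 123 CPM in morula (86.0 to 148), had 6 counts over the 6 spermatid libraries, 1 in eWAT and 0 in sperm, liver and muscle. Sox2 was low everywhere: 0.7998 CPM in morula (0.165 to 1.19) and 0.418 CPM in round spermatids (0.250 to 0.607), ranges that overlapped, with 0 counts in sperm, liver and eWAT and 2 in muscle. Cdx2, at 10.9 CPM in morula (5.84 to 13.8), had 11 counts in round spermatids, 1 each in liver and eWAT and 0 in muscle, and all its 13 sperm counts lay in 1 LFD library (4.46 CPM). Per nuclear count that library read 12.2 CPM, inside the morula range of 7.83 to 17.9. A count of 0 over the 6 libraries of a table allows up to 0.156 CPM in sperm, 0.223 CPM in liver and 0.169 CPM in eWAT. These 4 genes were thus at or near the floor in the grown tissues.

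The other 6 were read outside the embryo as well. Klf4 was highest in round spermatids, where it is a known gene of haploid germ cells, at 257 CPM (242 to 268). It was followed by eWAT at 220 CPM (114 to 382), the 2 being level at 262 nuclear CPM. Morula at 49.6 CPM (45.0 to 53.5) stood beside muscle at 41.8 CPM (16.2 to 51.3), with sperm (4.79) and liver (1.96) far lower. Per nuclear count sperm read 18.2 CPM (4.15 to 27.6), between muscle at 63.7 CPM and liver at 2.60 CPM. Gata6 had its next highest level in eWAT, at 33.1 CPM (13.3 to 49.3) against 299 CPM in morula (258 to 315), then in liver (12.7, 4.91 to 14.9) and round spermatids (6.97, 6.51 to 10.4). Klf5 followed its 601 CPM in morula (561 to 662) with 26.1 CPM in round spermatids (22.9 to 27.5) and 7.39 CPM in muscle (1.69 to 12.8). The spermatid table counts Klf5 over 1721 bases and Gata6 over 3194, against 5201 and 6508 bases in the other tables, so its values for these 2 genes miss part of their exons. Tead4 was at 165 CPM in morula (150 to 176), at 4.68 CPM in eWAT (1.33 to 8.38) and at 4.17 CPM in muscle (0 to 8.32), and Tfap2c was at 58.9 CPM in morula (54.1 to 71.3) and at most 8.20 CPM (16.7 nuclear CPM) in any library of another table.

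Gata3 was the only factor with a median as high in sperm as in morula, at 40.4 CPM against 39.8 CPM. Per nuclear count its sperm median was 141 CPM (104 to 190) against 53.9 CPM in morula (50.96 to 61.0), without overlap. In HFD sperm it read 16.7, 41.6 and 21.7 CPM in the libraries of 2994295, 4062321 and 3679276 counts, and in LFD sperm 39.1, 61.6 and 104 CPM in those of 2913166, 3050543 and 2560219 counts, so the diets overlapped. The mitochondrially encoded share enters these values. Per nuclear count Gata3 read 106, 190 and 104 CPM in the HFD and 107, 174 and 184 CPM in the LFD libraries, again with overlap. The sperm library with 104 CPM of Gata3 and the lowest mitochondrially encoded share, 43.5%, had the most Crisp1, an epididymal secretory gene, at 23483 CPM against 1585 to 7804 CPM in the other 5, and the most Epcam, an epithelial surface gene, at 237 CPM against 19.8 to 112 CPM. Per nuclear count it was again the highest in both (41544 CPM of Crisp1 and 420 CPM of Epcam). It was not in Gata3, where an HFD library with 11889 nuclear CPM of Crisp1 read more. Nor was it in Tfap2c, at 14.5 against 16.7 nuclear CPM in another LFD library. That other library was next in Crisp1 (22078 nuclear CPM) and in Epcam (318 nuclear CPM). The remaining sperm libraries read 0 to 8.99 nuclear CPM of Tfap2c. In Gata3 the LFD libraries highest in Crisp1 read 184 and 174 nuclear CPM. These values lay below the HFD library at 190 and above the rest at 104 to 107. Per the methods, sperm were purified by swim-up, held in a cell lysis buffer and used only where the microscope showed no somatic cells. The part of epididymal RNA in the sperm values was not tested. Elsewhere Gata3 was at 4.67 CPM in eWAT (1.97 to 13.2), 1.06 CPM in round spermatids (0.944 to 1.39) and 0.196 CPM in liver (0 to 1.47).

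In eWAT, 1 library of 3512177 counts read 29.0 CPM of Klf5 (102 counts), while the other 5 read 0.986 to 6.88 CPM, and the median of 2.25 CPM became 1.51 CPM without it. That library also held 220 CPM of Epcam against at most 0.573 CPM in the others, and 165 CPM of Cdh1 against at most 1.49 CPM. The epithelial genes Krt18 and Krt8 were at 110 and 2.56 CPM in it, against at most 13.6 and 0.302 CPM. It held 21.1 CPM of the spermatid gene Prm1 against at most 1.72 CPM, while the spermatid gene Acrv1 was at 0 CPM in it. Of the epididymal secretory genes, Adam7 was at 10.8 CPM in it against at most 1.49 CPM, while Crisp1 was at 0 CPM. The part of such RNA in its Klf5 level was not tested. Its Klf4 level was the lowest of eWAT, at 114 CPM.

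**Figure D5:**
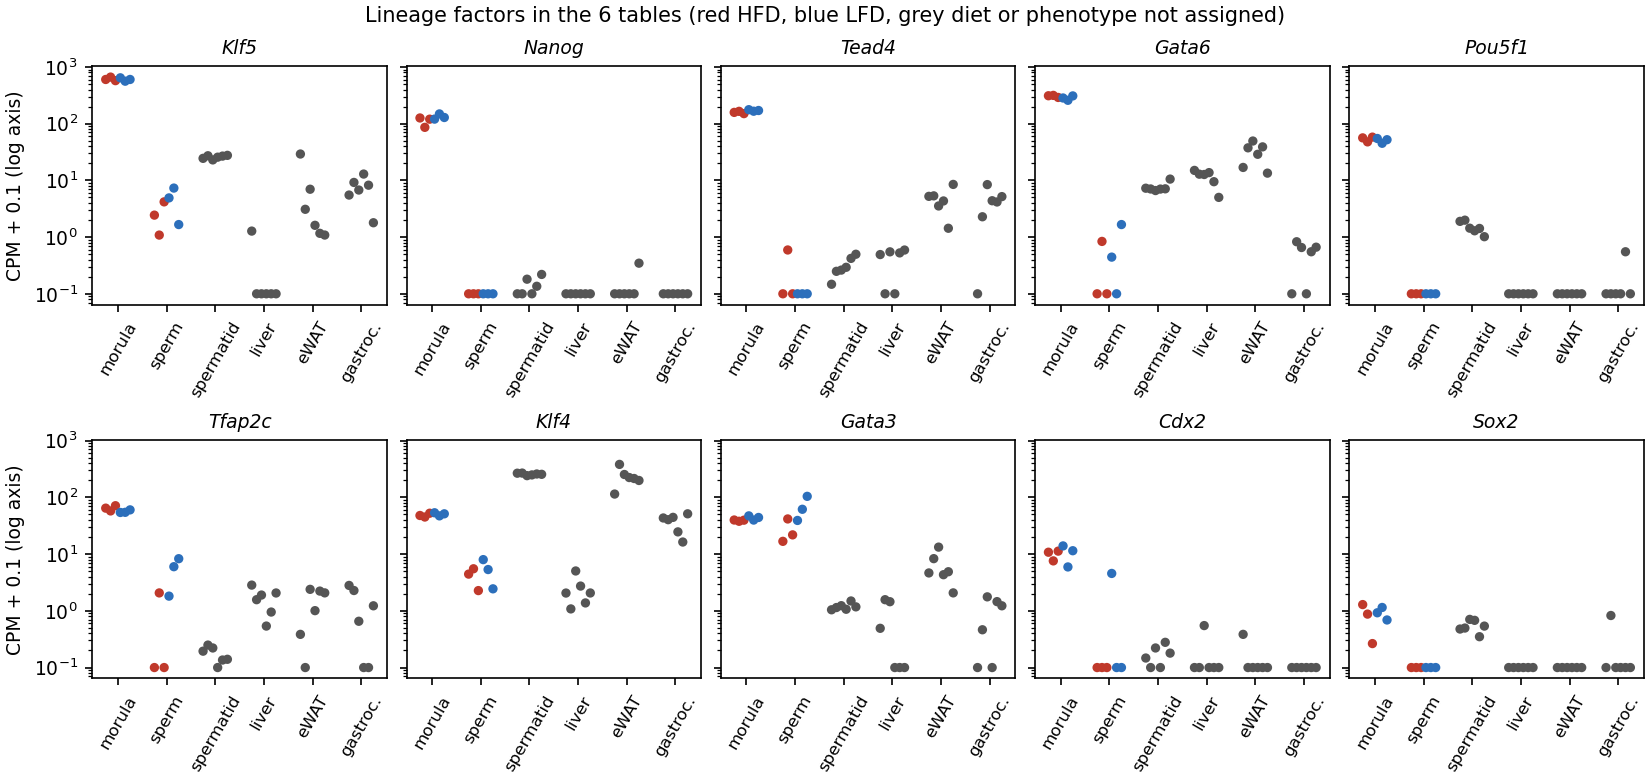
Level of each lineage factor in every library of the 6 tables, as CPM + 0.1 on a log axis, so that points at 0.1 stand for 0 counts, with HFD in red, LFD in blue and libraries with no assigned diet or phenotype in grey. Pou5f1 and Nanog stand high in morula alone, Cdx2 does so except for 1 sperm library at 4.46 CPM, Klf4 peaks in round spermatids and eWAT, and Gata3 in sperm (16.7 to 104 CPM) spans its morula level.

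For each factor, the 2 other genes with the most similar profile were taken by the smallest Euclidean distance over the 6 table medians of log2(CPM + 1), among 51327 genes. Bex6 (distance 0.15) and Frmpd1 (0.32) lay nearest to Pou5f1, Gm15459 (0.04) and Gm11545 (0.06) to Nanog, C87977 (0.02) and 4930500L23Rik (0.04) to Cdx2, and Grm2 (0.01) and Gm14212 (0.02) to Sox2, a gene so low that many profiles resemble it. Factors with expression in several tables had more distant neighbours: Ptges (0.83) and Mboat1 (1.85) for Gata3, Myc (0.96) and Gm11478 (1.13) for Tfap2c, Dusp14 (1.65) and Gas2l3 (1.81) for Tead4, Rab11fip5 (2.37) and Ccdc88c (2.71) for Klf4, and Igf2bp2 (2.50) and Slc12a7 (2.67) for Gata6. Hnrnpa1 (1.87) and Gapdh (2.08) lay nearest to Klf5, but both have many processed pseudogenes that can take their reads, and Gapdh had a median of 0 in liver. Likeness here rests on 6 medians from different library kits, scaled to totals that include mitochondrially encoded counts.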

How the data were processed

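RNA-seq was deposited as 6 tables of raw counts per gene with the gene length. Per the methods, the authors used BBDuk for trimming, STAR for alignment to the GRCm38 genome and featureCounts for counting, inside the Artificial Intelligence RNA-Seq software, and the deposited counts are not normalized. Whether counting used strand is not given in the sources used here. Diet in morula and sperm was taken from the letters of the column names. For 3 morula samples a description names the other diet, and the title and treatment were followed. Identifiers with a symbol numbered 55141 of 55487 in the morula table. The members and lists were chosen with earlier results of these data known, and the tissue, epithelial and epididymal markers after values had been seen.

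The morula table was fitted with edgeR 4.0.16 in R 4.3.3 (filterByExpr at a minimum count of 10, TMM, two-sided quasi-likelihood test), and p-values were adjusted over all tested genes after Benjamini and Hochberg with a threshold of 0.05. DESeq2 1.42.0, limma-voom (limma 3.58.1), a re-implementation of NOISeq, other scalings, no filter and leaving out each library were alternatives. The authors used NOISeq, and the re-implementation here took 0.5 in place of 0 and a probability above 0.8. The fit and the permutation tests were tested on simulated data. Chi-square per degree of freedom between morula libraries was 8.19 or more, so no pair agreed within counting error and none were merged. This does not show that they came from separate embryo pools. TPM and CPM were computed from the counts, and CPM of the other 5 tables was described without a test. Near copies were sought with BLAST 2.17.0 (95% identity over 75 bases) in GENCODE M21 transcripts. All 10 members were named. For likeness the 2 nearest genes were named, and in each pathway list the 2 most abundant and the 2 with the largest difference, with Yap1, Gata4, Rdx, Rock1, Aqp3, Wwtr1 and Wwc1 added after their values were seen. Plots used matplotlib 3.10.9 (Python 3.11.15).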

Additional observations from a re-analysis of the deposited data

Results flagged for a closer look

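In round spermatids, liver, eWAT and gastrocnemius, 22 groups of 6 libraries (with a summed count of at least 10) were examined. A single level of a lineage factor far from the rest was sought. Of these groups, 2 held such a value by Dixon's test at the 95% level, where chance gives about 1 in 20. Morula and sperm were not examined in this way. Gata6 in round spermatids was at 10.4 CPM in 1 library (262 counts) and at 6.51 to 7.17 CPM in the other 5. Klf5 in eWAT was at 29.0 CPM in 1 library (102 counts) and at 0.986 to 6.88 CPM in the other 5. The library with 29.0 CPM also stood apart in Epcam, Cdh1, Krt18, Krt8, Prm1 and Adam7. It did not in the spermatid gene Acrv1 or the epididymal gene Crisp1, both at 0 CPM.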

How the results depend on the processing

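The count of 0 genes called in morula became 63 with no filter on low counts, 18 in DESeq2 (5 higher, 13 lower), 6 in the NOISeq re-implementation and 0 to 2 with 1 library left out (2 without HFD 5), and stayed 0 in limma-voom (900 genes at an unadjusted p under 0.05), under both other scalings, without mitochondrially encoded genes and at an adjusted p under 0.1. No lineage factor was called in any of these, the lowest adjusted p being 0.441 (Nanog). With 1 library left out, log2 fold changes ran from -0.0024 to 0.16 for Pou5f1, -0.38 to 0.15 for Cdx2 and -0.045 to 0.066 for Klf5, changing sign, as Klf5 did with no filter (-0.0064), and from -0.39 to 0.27 for Sox2, which passed the filter in 4 of the 6 leave-outs and was positive only without HFD 7. Gata6 (0.027 to 0.16), Klf4 (-0.13 to -0.026), Nanog (-0.42 to -0.12), Tead4 (-0.17 to -0.085), Gata3 (-0.24 to -0.14) and Tfap2c (0.12 to 0.26) kept their sign. The same leave-outs moved the ratio differences between -0.16 and 0.55 for Cdx2 to Nanog, -0.35 and 0.063 for Cdx2 to Pou5f1, -0.28 and 0.16 for Gata3 to Sox2 and -0.022 and 0.19 for Klf5 to Klf4, while Gata6 to Nanog (0.19 to 0.48) and Tead4 to Tfap2c (-0.41 to -0.20) kept their sign. Without a pseudocount Gata3 to Sox2 was 0.42. Leaving mitochondrially encoded genes out of the library total, an alternative chosen after seeing the data, moved the median of Gata3 from 40.4 to 141 CPM in sperm and from 39.8 to 53.9 CPM in morula, by construction. The cause of the other changes was not tested. No paired analysis was possible because the HFD and LFD morula columns share no replicate number. Depth limits Sox2 above all, at 2 to 14 counts a library.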
